A study of Equus caballus with 3 samples.

Results

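The 37 *HOX* genes with a row in the deposited count matrices and the non-coding transcript *RF01975* are described here in equine mesenchymal stromal cells (MSCs). Members were the rows named *HOXA*, *HOXB*, *HOXC* or *HOXD* followed by a number, plus *RF01975*, which gave 38 of 29927 rows. There were 10 genes of the *HOXA* cluster on chromosome 4, 10 of *HOXB* on chromosome 11, 9 of *HOXC* on chromosome 6 and 8 of *HOXD* on chromosome 18 (EquCab3.0, as given in the matrices). *RF01975*, which carries only the identifier of a non-coding RNA family, lay on chromosome 4 on the opposite strand to the *HOXA* genes. *HOXA4* and *HOXD4* were not analysed here.

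*HOX* genes encode homeodomain transcription factors and lie in 4 clusters in mammals. Within a cluster, genes are numbered by paralogue group, and in the embryo the genes with low numbers are switched on in more anterior regions and those with high numbers in more posterior regions of the trunk and in distal parts of the limb. Stromal cells and fibroblasts grown from adult tissue are known to keep a *HOX* pattern that reflects the body site they came from, while most of the skeleton and connective tissue of the face arises from cells that express no *HOX* genes.

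The MSCs came from 1 healthy adult Warmblood mare of 10 years, with AT standing for adipose tissue, BM for bone marrow and PB for peripheral blood. They were grown in culture over 2 passages before droplet sequencing, and each source gave 1 library. The source name label reads peripheral blood mononuclear cells for all 3 libraries, and AT, BM and PB were taken from the titles. As there was 1 library per source, the difference between sources cannot be told apart from the difference between libraries, no test was run, and all 95% intervals below cover counting error only. A level in CPM is the number of unique molecular identifiers (UMIs) of a gene per 1000000 UMIs summed over the kept cells of a source. UMIs were read at the 3′ ends of transcripts, and levels are compared between sources rather than between genes.

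Barcodes were kept where their total lay between 2500 and 15000 UMIs and chromosome MT held no more than 3% of it. This left 5403 AT-, 5580 BM- and 5318 PB-derived cells with 39980656, 40239295 and 41622445 UMIs and median depths of 7291, 6874 and 7750 UMIs per cell. In every source, 14 of the 14 stromal markers with a row were at 1 CPM or more, against 2 or 3 of 10 haematopoietic and 0 of 6 endothelial markers, and *PTPRC* (CD45) and *KDR* had no UMI in any source. The summed level of the haematopoietic markers was 8.40 CPM in AT, 16.8 CPM in BM and 12.8 CPM in PB. Between 72 and 77 kept barcodes per library were also kept in another library. All 5318 kept PB barcodes also occurred in the AT matrix, where 37 of them were kept.

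*HOX* transcripts were abundant in AT- and BM-derived MSCs and close to absent in PB-derived MSCs. The 38 members summed to 287 CPM in AT (95% interval 281 to 292, 11456 UMIs), 462 CPM in BM (456 to 469, 18603 UMIs) and 0.384 CPM in PB (0.220 to 0.624, 16 UMIs). The sum was thus 745-fold higher in AT than in PB (459 to 1305) and 1203-fold higher in BM than in PB (740.4 to 2105). AT was at 0.620 times the level of BM (0.605 to 0.634), a difference of -0.69 in log2(CPM + 1). The *HOX* genes alone, without *RF01975*, summed to 258 CPM in AT, 371 CPM in BM and 0.384 CPM in PB. Scaling by TMM factors in place of the library total moved AT upward against BM by 0.28 on the log2 scale for every gene, and the member sum remained lower in AT (308.9 against 410.5 CPM).

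A *HOX* or *RF01975* UMI was found in 83.4% of AT-derived cells (82.4 to 84.4), 93.4% of BM-derived cells (92.7 to 94.0) and 0.282% of PB-derived cells (0.158 to 0.465). With every cell thinned to 2500 UMIs the shares were 50.5%, 67.5% and 0.132%. The order of the sources was the same at equal depth, and PB had the highest median depth of the 3 libraries.

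**Figure D1:**
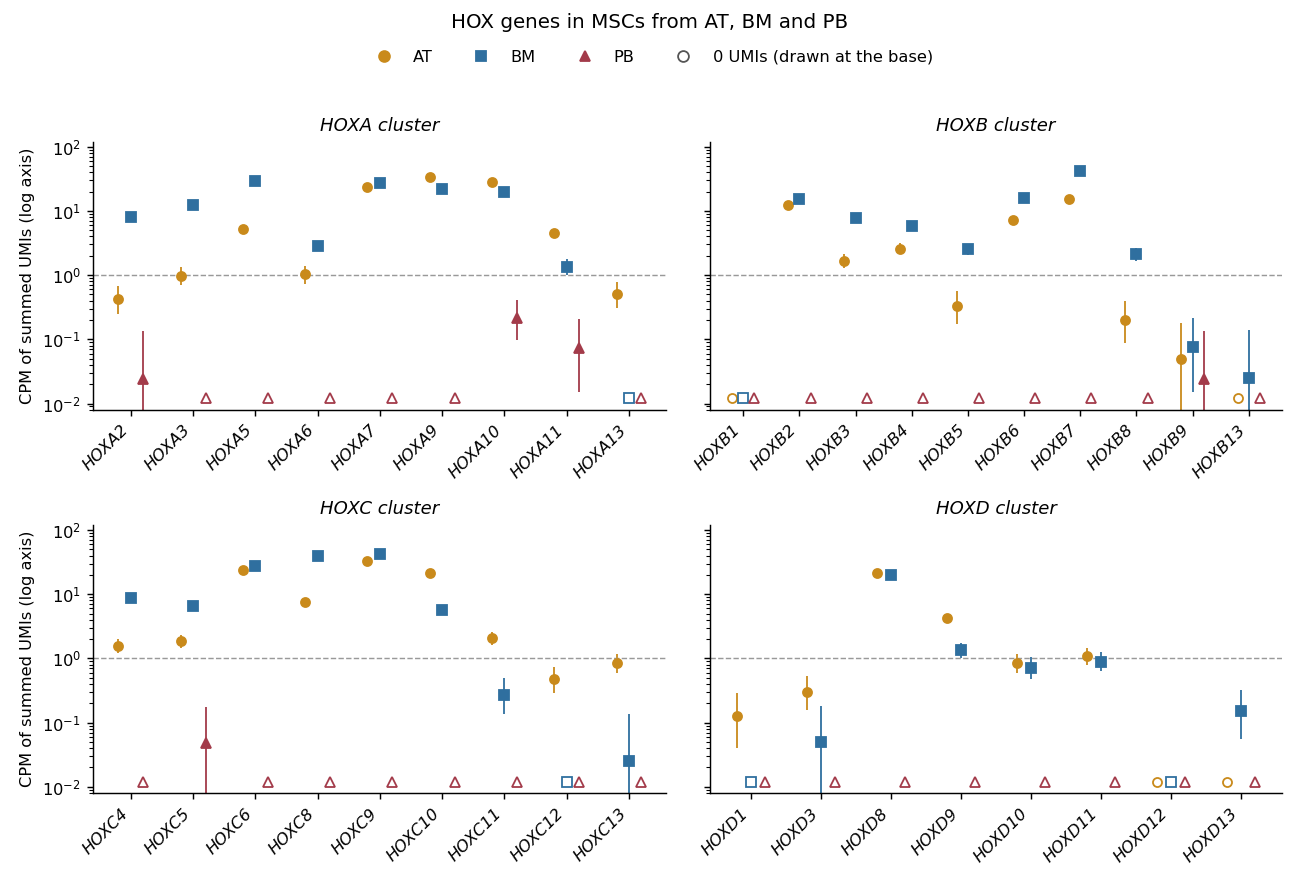
CPM of the summed UMIs of 36 *HOX* genes (log axis) in AT (circles), BM (squares) and PB (triangles), in a panel for each cluster with genes in the order of their paralogue number. Bars are exact 95% Poisson intervals, open symbols at the base mark genes with 0 UMIs in that source and the dashed line marks 1 CPM. PB lies at or near 0 throughout, whereas AT is below BM for most genes up to paralogue 8 and above it for most genes from paralogue 9 on.

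The lack of *HOX* UMIs in PB extended over all 4 clusters. In PB, 33 of the 38 members had no UMI, and 0 reached 1 CPM, against 22 in AT and 25 in BM. A sum of 0 UMIs over all kept PB cells allows up to 3 UMIs, or 0.0721 CPM. *HOXA10*, a gene of the lumbar skeleton and the uterus, had 9 of the 16 UMIs in PB (0.216 CPM), and *HOXA11*, which patterns the middle segment of the limb, had 3 (0.0721 CPM). The remaining UMIs were 2 of *HOXC5* and 1 each of *HOXA2* and *HOXB9*. All 16 UMIs lay in 15 cells, with at most 1 *HOX* gene per cell.

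Among 9281 genes with at least 100 UMIs in both AT and BM, 18 genes (0.194%) had no UMI in PB, and 13 of these 18 were members, out of 14 members with that depth. These 13 ranged from *RF01975*, with 1128 UMIs in AT and 3685 in BM, to *HOXB4*, with 103 and 238. *HOXA10* was the member with that depth that did have UMIs in PB. The genes in that set that were not members, which were named after their values were seen, were *CALCA*, *SERPINB10*, *NRN1*, *HMCN1* and the unnamed ENSECAG00000008654.

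AT exceeded PB by a log2 difference of 1 or more for 22 of the 35 members with a UMI in at least 3 kept cells of a source, whereas 3.53% of all 16460 such genes did so. BM exceeded PB for 25 of 35 members, against 4.53% of all genes. Among genes at 1 CPM or more in a source the corresponding shares of all genes were 4.81% and 6.17%, and 22 and 25 of 27 members. The median difference in log2(CPM + 1) over the 35 members was 1.46 for AT minus PB and 2.79 for BM minus PB, beside -0.02 and 0.13 over all genes. Both comparisons share the PB library. As the members were near 0 in PB, the call was met by the same 22 and 25 members that reached 1 CPM in AT and BM. No member reached 1 CPM in PB, so members passed the filter at 1 CPM through AT or BM alone. These counts therefore restate the levels given above.

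The few *HOX* UMIs in PB were unevenly spread over the 10 cell clusters found in PB. PB cell cluster 8, with 152 cells, held 6 of the 16 UMIs, among them 5 of the 9 *HOXA10* UMIs, and had 5.53 CPM of *HOXA* genes. PB cell cluster 7, with 261 cells, held 3 further *HOXA10* UMIs. The other PB cell clusters together held 7 member UMIs, and 4 of them held none. Cell cluster 8 was also the cluster with high *NSG1* (257 CPM against 19.9 CPM in the other PB cells) and *MGP* (719 against 101 CPM), both named after their values were seen. The log2 difference in the member sum between PB cell clusters 8 and 4, both picked by their values, was 2.71 (0.46 to 3.70). As 1 member was among the variable genes in PB, the PB cell clusters were also built without the members. A cell cluster of 149 cells was then highest, at 5.73 CPM. All 15 cells had a barcode that also occurred in the AT matrix, like all 5318 kept PB barcodes, but none had a barcode that was kept in AT or BM, and none had one in the BM matrix.

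The *HOXA* genes summed to 98.8 CPM in AT (95.7 to 102), 125 CPM in BM (121 to 128) and 0.312 CPM in PB (0.166 to 0.534). Within this cluster the genes of low number were higher in BM and those of high number higher in AT. Paralogues 1 to 8 of *HOXA* summed to 31.8 CPM in AT against 82.0 CPM in BM, a ratio of 0.387 (0.363 to 0.413), while *HOXA9* to *HOXA13* summed to 67.0 against 42.6 CPM, a ratio of 1.57 (1.48 to 1.67). The cut between these 2 blocks was chosen after the values were seen.

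*HOXA2*, needed to pattern the pharyngeal arches, had 0.425 CPM in AT, 7.98 CPM in BM and 0.0240 CPM in PB, so that AT was at 0.0533 times BM (0.0307 to 0.0867). *HOXA3*, required for the thymus and parathyroid glands, had 0.975 CPM in AT, 12.6 CPM in BM and 0 in PB, with AT at 0.0776 times BM (0.0545 to 0.108). These were the lowest ratios of AT to BM among the 26 *HOX* genes at 1 CPM or more in AT or BM. *HOXA5*, a gene of the cervical and upper thoracic skeleton and the lung, followed the same direction with 5.20 CPM in AT, 29.0 CPM in BM and 0 in PB (ratio 0.179, 0.154 to 0.208). *HOXA6* had 1.03 CPM in AT against 2.83 CPM in BM.

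*HOXA7* had 23.2 CPM in AT against 27.7 CPM in BM, a ratio of 0.838 (0.768 to 0.916) that passed to the other side of 1 with TMM factors (1.02). From *HOXA9* on, the order of AT and BM was turned around. *HOXA9*, known for its part in haematopoietic progenitors and leukaemia, had 33.5 CPM in AT, 21.6 CPM in BM and 0 in PB (ratio 1.55, 1.43 to 1.69). *HOXA10* had 28.5 CPM in AT, 19.7 CPM in BM and 0.216 CPM in PB (ratio of AT to BM 1.45, 1.32 to 1.59). *HOXA11* had 4.50 CPM in AT, 1.34 CPM in BM and 0.0721 CPM in PB (ratio 3.35, 2.46 to 4.64). *HOXA13*, which patterns the digits and the genital tract, had 20 UMIs in AT and none in BM or PB. With 3 UMIs in place of 0 in BM, AT was 6.71-fold above BM.

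The *HOXB* genes were the cluster with the lowest level in AT relative to BM. They summed to 39.7 CPM in AT (37.8 to 41.7), 91.8 CPM in BM (88.8 to 94.8) and 0.0240 CPM in PB, a ratio of AT to BM of 0.433 (0.408 to 0.459) that was 0.525 with TMM factors. Nearly all of this came from paralogues 2 to 8, all 7 of which were higher in BM. *HOXB2*, a hindbrain gene, differed least, with 12.5 CPM in AT and 15.3 CPM in BM (ratio 0.820, 0.727 to 0.924, and 0.995 with TMM factors).

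*HOXB3* had 1.65 CPM in AT against 7.75 CPM in BM (ratio 0.213). *HOXB4*, studied as a factor that expands haematopoietic stem cells, had 2.58 CPM in AT against 5.91 CPM in BM (ratio 0.436). *HOXB5* had 0.325 CPM in AT against 2.56 CPM in BM (ratio 0.127), and *HOXB6* had 7.25 CPM in AT against 16.1 CPM in BM (ratio 0.451). All 4 genes were without a UMI in PB. *HOXB7* was at 15.2 CPM in AT, 42.0 CPM in BM and 0 in PB (ratio 0.361, 0.328 to 0.396), and a UMI was found in 10.2% of AT-derived and 25.5% of BM-derived cells. *HOXB8*, a gene of myeloid progenitors and the thoracic trunk, had 8 UMIs in AT and 85 in BM (ratio 0.0947, 0.0396 to 0.195).

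Almost no transcript was counted for *HOXB9* and *HOXB13*, at the 5′ end of the cluster, or for *HOXB1*, at its 3′ end. *HOXB9* was seen with 2 UMIs in AT, 3 UMIs in BM and 1 UMI in PB, *HOXB13*, a gene of the prostate and tail region, had 1 UMI in BM and none elsewhere, and *HOXB1* had none in any source. These counts were at or under the floor of 3 UMIs, and no ratio was formed.

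The *HOXC* genes summed to 92.1 CPM in AT (89.1 to 95.1), 131 CPM in BM (128 to 135) and 0.0481 CPM in PB. As in *HOXA*, the direction depended on the paralogue number. *HOXC4* had 1.58 CPM in AT, 8.85 CPM in BM and 0 in PB (ratio of AT to BM 0.178, 0.134 to 0.233), and *HOXC5* had 1.88, 6.64 and 0.0481 CPM (ratio 0.283, 0.216 to 0.367). *HOXC6* differed little between AT and BM, at 24.1 and 27.4 CPM (ratio 0.877, 0.804 to 0.957), and exceeded BM in AT with TMM factors (1.06). *HOXC8*, which specifies thoracic vertebrae, had 7.58 CPM in AT, 39.5 CPM in BM and 0 in PB (ratio 0.192, 0.169 to 0.217).

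*HOXC9*, which marks the thoracic level of the trunk, had 32.4 CPM in AT against 42.7 CPM in BM (ratio 0.759, 0.706 to 0.817). Among the genes of paralogues 9 to 13 at 1 CPM or more in AT or BM, it was the exception in being higher in BM. Its neighbour *HOXC10*, a gene of the lumbar trunk and the hindlimb that is also known from subcutaneous fat, showed the opposite, with 21.2 CPM in AT, 5.69 CPM in BM and 0 in PB (ratio 3.72, 3.21 to 4.32). A UMI of *HOXC10* was found in 14.1% of AT-derived and 3.98% of BM-derived cells, or in 5.15% and 1.18% after thinning.

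The remaining *HOXC* genes were scarce and were found mostly in AT. *HOXC11* was counted with 82 UMIs in AT against 11 in BM (ratio 7.50, 3.98 to 15.6). *HOXC12* had 19 UMIs in AT and none in BM or PB, so that AT was at least 6.37-fold above BM. *HOXC13*, which acts in hair follicles and nails, had 34 UMIs in AT against 1 in BM, with none in PB, a ratio of 34.2 with a counting interval from 5.74 to 1391.

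The *HOXD* genes were the cluster that was higher in AT as a whole, with 27.7 CPM in AT (26.1 to 29.4), 23.3 CPM in BM (21.8 to 24.8) and 0 UMIs in PB (ratio of AT to BM 1.19, 1.09 to 1.30). Most of this sum was *HOXD8*, whose level was nearly the same in AT and BM at 21.1 and 20.1 CPM. Its ratio of 1.05 had an interval from 0.954 to 1.16, and the direction turned around with all barcodes of 500 UMIs or more, with thinned cells and with cells of 8000 UMIs or more. *HOXD9* had 4.23 CPM in AT against 1.34 CPM in BM (ratio 3.15, 2.31 to 4.36).

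The 5′ *HOXD* genes, which pattern the limb from the forearm to the digits, were near or under 1 CPM. *HOXD10* had 34 UMIs in AT and 29 in BM (ratio 1.18, 0.698 to 2.01), and *HOXD11* had 44 and 36 (1.23, 0.774 to 1.97), differences that were not detectable at this depth. *HOXD13* had 6 UMIs in BM and none in AT or PB. *HOXD3* had 12 UMIs in AT and 2 in BM, *HOXD1* had 5 UMIs in AT and none elsewhere, and *HOXD12* had none in any source.

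Summed over the clusters, the ratio of AT to BM lay below 1 for paralogues 2 to 8, without a steady rise, and above 1 from paralogue 9 on. It was 0.557 for paralogue 2, 0.144 for 3 and 0.281 for 4. For paralogues 5, 6, 7 and 8 it was 0.194, 0.698, 0.551 and 0.469. Paralogue 9 was close to even at 1.07 (1.01 to 1.13), with 70.3 CPM in AT and 65.7 CPM in BM, and turned to 0.970 with all barcodes of 500 UMIs or more. Paralogue 10 reached 1.94 (1.80 to 2.09), paralogue 11 reached 3.05 (2.43 to 3.86) and paralogue 13 reached 6.79 (3.21 to 16.5), the last from 54 and 8 UMIs.

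In blocks chosen after these values were seen, paralogues 1 to 4 summed to 21.1 CPM in AT and 60.3 CPM in BM (ratio 0.349, 0.323 to 0.378). Paralogues 5 to 8 summed to 107 and 216 CPM (ratio 0.496, 0.478 to 0.514) and paralogues 9 to 13 to 130.2 and 94.5 CPM (ratio 1.38, 1.32 to 1.44). Paralogues 9 to 13 made up 50.4% of the *HOX* UMIs in AT and 25.5% in BM. The mean paralogue number of a *HOX* UMI was 7.85 in AT and 6.75 in BM. Within clusters it was higher in AT for *HOXA* (8.52 against 6.56) and *HOXC* (8.29 against 7.58), lower for *HOXB* (4.87 against 5.43) and nearly equal for *HOXD* (8.25 against 8.26). TMM factors raised the ratios of the 3 blocks to 0.424, 0.602 and 1.67 and left each on its side of 1.

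Gene by gene, 17 of the 18 genes of paralogues 1 to 8 that reached 1 CPM in AT or BM were higher in BM, *HOXD8* being the exception. Of the 8 such genes of paralogues 9 to 13, 7 were higher in AT, with *HOXC9* as the exception. The cut after paralogue 8 was chosen after the values were seen, so these counts restate the block values gene by gene. The interval of the ratio lay below 1 for 18 of the 26 genes, above 1 for 6 and included 1 for 2. Over all 12067 genes at 1 CPM or more in a source, the median difference in log2(CPM + 1) of AT minus BM was -0.24. Most of those genes were thus also higher in BM, and their share was not counted. With TMM factors, 15 of 18 and 7 of 8 genes held these directions, the genes that changed sides being *HOXA7* and *HOXC6*. With cells called G1 the counts were 16 and 7.

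Across the 26 genes, the difference in log2(CPM + 1) between AT and BM rose with the paralogue number with a Spearman coefficient of 0.72 and a Pearson coefficient of 0.69. The genes share their libraries and lie side by side in their clusters, so they are not independent, and these coefficients are descriptions. The relation was visible in *HOXA* (Spearman 0.80 over 9 genes) and *HOXC* (0.68 over 7 genes). In *HOXB*, where all 7 genes belonged to paralogues 2 to 8, it was -0.21. In *HOXD*, with 3 genes, the Spearman coefficient was 0.50 and the Pearson coefficient -0.12.

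**Figure D2:**
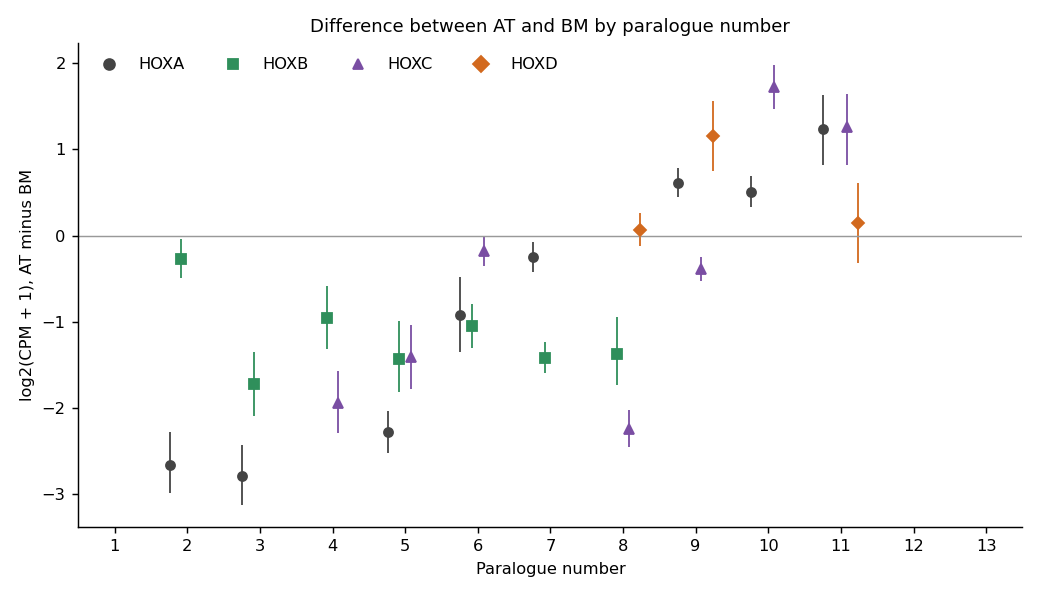
Difference in log2(CPM + 1) between AT and BM (AT minus BM) against paralogue number for 25 of the 26 *HOX* genes at 1 CPM or more in AT or BM, with a colour and symbol for each cluster. Bars combine the exact 95% Poisson limits of both sums, and the line at 0 marks equal levels. Of the 17 points up to paralogue 8, 16 lie below 0, and 7 of the 8 points from paralogue 9 on lie above it, a cut chosen after the values were seen.

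Past a log2 difference of 1, AT exceeded BM for 4 of 35 members, *HOXA11*, *HOXC10*, *HOXC11* and *HOXD9*, where 2.06% of all 16460 genes did so. BM exceeded AT for 12 of 35 members, where 6.32% of all genes did so. These 12 were *RF01975*, *HOXA2*, *HOXA3*, *HOXA5*, *HOXB3*, *HOXB5* to *HOXB8*, *HOXC4*, *HOXC5* and *HOXC8*. Among genes at 1 CPM or more in a source, the shares of all genes were 2.81% and 8.63% beside 4 and 12 of 27 members. The median difference over the 35 members was -0.24, beside -0.14 over all genes, and over the 27 members at 1 CPM or more it was -0.92, beside -0.24.

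*RF01975* was counted at 28.2 CPM in AT (26.6 to 29.9), 91.6 CPM in BM (88.6 to 94.6) and 0 in PB. Its ratio of AT to BM of 0.308 (0.288 to 0.329) lay below that of the *HOXA* genes 1 to 8 summed. A UMI was present in 18.0% of AT-derived and 43.7% of BM-derived cells, or in 7.44% and 20.2% after thinning to 2500 UMIs. The rows *RF01976* to *RF01979*, which carry like identifiers and lie on the same strand of chromosome 4, were lower in AT than in BM as well. Their UMI counts were 26 against 84, 20 against 85, 5 against 30 and 3 against 26, and PB gave none. These rows were chosen after their values were seen.

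Single cells held few *HOX* UMIs at this depth. The median number of *HOX* genes with a UMI was 2 in AT- and BM-derived cells and 0 in PB-derived cells, and the highest was 9, 12 and 1. At least 2 *HOX* genes were seen in 50.7% of AT-derived and 65.3% of BM-derived cells, which fell to 12.6% and 22.3% with 2500 UMIs per cell. UMIs of 2 or more of the 4 clusters were common in the same cell, as 2 clusters were seen in 31.0% of AT-derived and 35.7% of BM-derived cells, 3 in 11.2% and 19.0%, and all 4 in 1.63% and 2.85%. In PB, no cell had UMIs of more than 1 cluster.

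**Figure D3:**
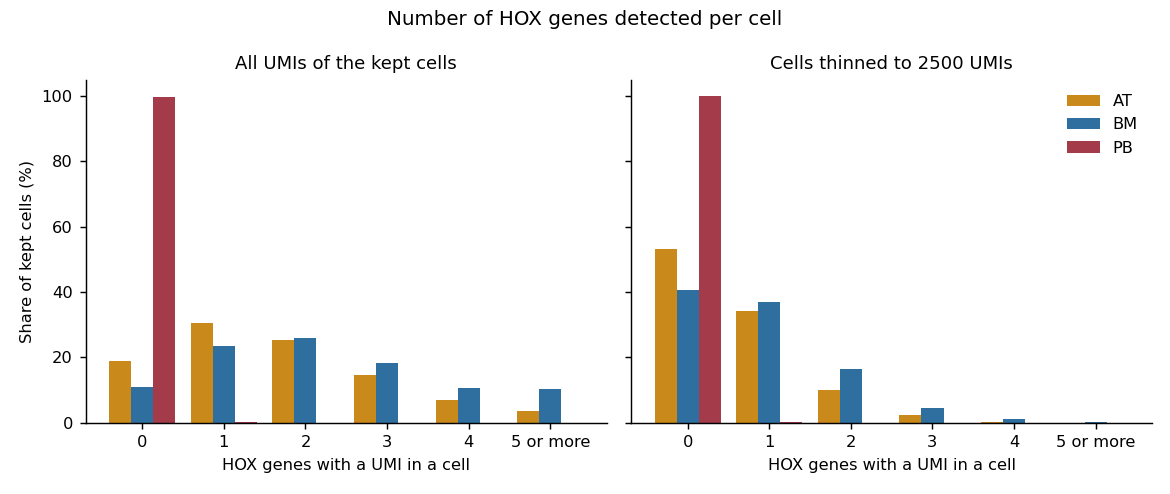
Share of kept cells (%) by the number of *HOX* genes with a UMI in a cell, for AT, BM and PB, with all UMIs (left) and after thinning every cell to 2500 UMIs (right). Without a *HOX* gene were 19.0% of AT-derived, 11.1% of BM-derived and 99.7% of PB-derived cells at full depth, and 53.3%, 40.7% and 99.9% after thinning.

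After thinning, cells with and without a UMI of a given cluster differed little in how often another cluster was seen. In AT, 21.5% of cells with a *HOXA* UMI also had a *HOXC* UMI (19.2 to 23.9), against 19.5% of cells without (18.4 to 20.8). In BM the shares were 28.5% (26.2 to 30.9) and 25.2% (23.9 to 26.6). For *HOXA* and *HOXB* they were 9.10% and 9.04% in AT and 21.7% and 21.6% in BM. Of the 10 pairs computed per source, both intervals were apart for *HOXC9* and its neighbour *HOXC8* in BM, where 12.5% of cells with *HOXC9* had *HOXC8* (9.91 to 15.6) against 8.54% of cells without (7.78 to 9.35). In AT the shares were 1.85% (0.746 to 3.77) and 1.97% (1.60 to 2.39).

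*HOX* levels varied less between the cell clusters of AT than between those of BM. Each source was clustered alone, with 8 cell clusters in AT and 8 in BM. The members summed to between 276 and 297 CPM over the AT cell clusters, a log2 difference of 0.10 (-0.02 to 0.23). In BM the range ran from 353 CPM in cell cluster 4 to 599 CPM in cell cluster 3, a log2 difference of 0.76 (0.65 to 0.87). The highest and lowest cell clusters of each source were picked by these values, which the intervals do not cover. As 7 members in AT and 8 in BM were among the 3000 variable genes used for clustering, the clusters were also built without the members, and the ranges were then 273 to 299 CPM in AT, a log2 difference of 0.13 (0.02 to 0.24), and 357 to 597 CPM in BM, a log2 difference of 0.74 (0.63 to 0.85).

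The range over cell clusters differed between genes. In AT, *HOXC9* ranged from 22.0 CPM in cell cluster 3 to 44.8 CPM in cell cluster 2, and *HOXA5* from 3.02 to 8.09 CPM, while *HOXA10* ranged from 25.7 to 32.6 CPM. In BM, *HOXB7* (36.5 to 51.1 CPM) and *HOXA7* (22.2 to 31.4 CPM) were the most even of the members with 100 UMIs or more. *HOXC10* (1.10 to 13.8 CPM), *HOXB5* (0 to 8.95 CPM) and *HOXC4* (5.17 to 22.5 CPM) were the most uneven there. For these 3 genes BM cell cluster 3 was the highest. The 0 of *HOXB5* was in BM cell cluster 7, which held 100 cells, and these ranges do not take counting error into account.

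**Figure D4:**
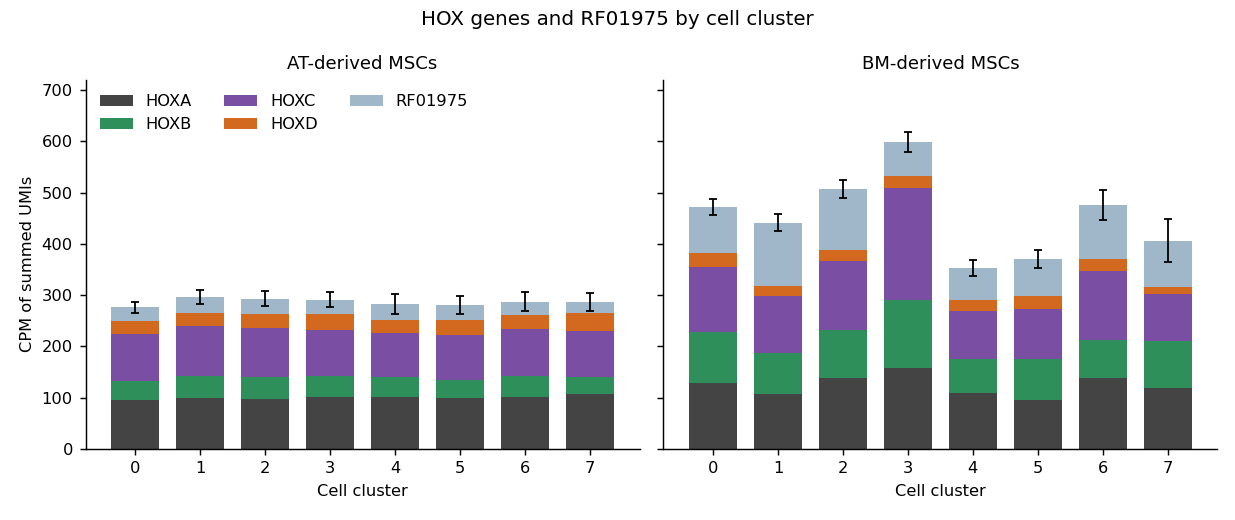
CPM of the summed UMIs of the *HOXA*, *HOXB*, *HOXC* and *HOXD* genes and *RF01975*, stacked, in each cell cluster of AT (left) and BM (right). Bars on the stacks are exact 95% Poisson intervals of the sum. The AT stacks lie between 276 and 297 CPM, and in BM cell cluster 3 reaches 599 CPM with 219 CPM of *HOXC* genes, against 353 CPM in cell cluster 4.

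By the cell cycle phase called from expression, member levels were lowest in S and highest in G2M in both sources, with intervals that were apart in BM and overlapped in AT. In BM the members summed to 455 CPM in cells called G1, 430.1 CPM in S and 525 CPM in G2M. In AT the values were 288, 279.5 and 292 CPM. *RF01975* was highest in G1 in BM (103 CPM, against 79.5 CPM in S and 64.0 CPM in G2M) and in AT (30.1, 26.3 and 24.4 CPM). Of BM cell cluster 3, which had the highest member sum, 90.2% of cells were called S or G2M, and of BM cell cluster 4, which had the lowest, 91.6%. The part of the cell cycle in these differences was not tested.

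*HMX2* encodes a homeodomain protein outside the *HOX* clusters that is known from the inner ear and the hypothalamus, and *HMX3* is its neighbour on chromosome 1. *HMX2* was counted at 1.68 CPM in AT, 13.8 CPM in BM and 0.0961 CPM in PB, *HMX3* at 1.03, 6.14 and 0 CPM, and *HMX1* had no UMI. In BM, 347 of 5580 kept cells (6.22%) had an *HMX2* UMI, and 315 of these 347 were in BM cell cluster 3, which held 651 cells. Cells with *HMX2* UMIs had a higher median depth than those without (10219 against 6749 UMIs), were more often called S or G2M (89.0% against 28.7%) and had less *JAM2*, a junctional adhesion molecule (60.2 against 494 CPM). The part of depth in the differences below was not tested either.

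BM-derived cells with *HMX2* UMIs had a higher *HOX* level and a lower *RF01975* level than those without. The *HOX* genes summed to 515 CPM (492 to 539) against 357 CPM (351 to 363), a ratio of 1.44 (1.37 to 1.52). *RF01975* had 59.0 CPM (51.3 to 67.6) against 94.7 CPM (91.6 to 97.9), a ratio of 0.623 (0.539 to 0.717). Among cells called S or G2M it had 55.2 CPM (47.3 to 64.1) against 77.0 CPM (72.0 to 82.2), and among cells called G1 the intervals overlapped, at 92.5 CPM (63.7 to 129.9) against 102.9 CPM (98.996 to 107.0). All 38 members together gave 574 against 452 CPM, a log2 difference of 0.35 (0.26 to 0.43). That difference was 0.25 among cells called G1, 0.37 among cells called S or G2M and 0.45 among cells with 8000 UMIs or more. After thinning, a *HOX* UMI was found in 68.3% of cells with *HMX2* UMIs and in 58.7% of cells without.

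With cells of all phases pooled, the *HOXC* genes had the largest ratio among the clusters, 1.67 (1.54 to 1.80), from 206 against 124 CPM. *HOXB* followed with 1.47 (1.33 to 1.62), from 129.7 against 88.2 CPM, and *HOXA* with 1.28 (1.17 to 1.40), from 156 against 122 CPM. The *HOXD* genes had 23.1 against 23.3 CPM, a ratio of 0.992 whose interval ran from 0.780 to 1.25. By paralogue block the ratios were close to each other, 1.58 for 1 to 4, 1.41 for 5 to 8 and 1.42 for 9 to 13. Among cells called S or G2M, the log2 difference was 0.63 for *HOXB*, 0.62 for *HOXC*, 0.32 for *HOXA* and 0.11 for *HOXD*. Among cells called G1 it was 0.85 for *HOXC*, 0.17 for *HOXB* and 0.02 for *HOXA*. For *HOXD* in G1 it was -1.01, from 4 UMIs in cells with *HMX2* UMIs.

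*HOXB5*, a gene of the thoracic trunk and the enteric nervous system, had the largest difference in log2(CPM + 1), 1.89, with 9.69 CPM in cells with *HMX2* UMIs (34 UMIs) and 1.88 CPM in cells without (69 UMIs), a ratio of 5.16 (3.32 to 7.89). Its neighbour *HOXB6* had 34.2 against 14.3 CPM (2.38, 1.94 to 2.91). *HOXC4* had 19.4 against 7.84 CPM (2.47, 1.87 to 3.23) and *HOXC5* 13.97 against 5.93 CPM (2.35, 1.69 to 3.22). These 4 genes were past a log2 difference of 1, of 30 members with a UMI in at least 3 BM cells, where 5.65% of all 15514 genes were higher by that much. No member was lower by a log2 difference of 1, where 5.09% of all genes were, and the median difference was 0.38 over the 30 members and 0.03 over all genes. Among cells called S or G2M the log2 difference was 1.56 for *HOXB5* and 1.13 for *HOXB6*, but under 1 for *HOXC4* (0.72) and *HOXC5* (0.79). Among cells called G1, *HOXB5* had 0 UMIs in the 38 cells with *HMX2* UMIs against 34 UMIs, or 1.36 CPM, in the 3730 cells without. The interval of that 0 ran up to 10.3 CPM, which included both 1.36 CPM and the 9.69 CPM of all phases pooled. The log2 difference in G1 was 1.32 for *HOXB6*, 1.10 for *HOXC4* and 0.17 for *HOXC5*, from 13, 5 and 2 UMIs in those 38 cells.

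The other members were within a log2 difference of 1. *HOXC11* had 4 UMIs in cells with *HMX2* UMIs and 7 in cells without, a ratio of 5.98 with a wide interval from 1.28 to 23.5. *HOXC10* had 10.8 against 5.20 CPM (ratio 2.08, 1.43 to 2.96), *HOXB2* 25.9 against 14.2 CPM (1.82), *HOXC6* 45.9 against 25.7 CPM (1.79) and *HOXA9* 33.6 against 20.4 CPM (1.65). *HOXA5* was even at 29.1 and 29.0 CPM, as was *HOXD8* at 21.4 and 19.98 CPM. *HOXB7* had 37.9 against 42.4 CPM (0.895, 0.744 to 1.07). *HOXD11* had 36 UMIs in cells without *HMX2* UMIs and 0 in the 347 cells with them. Its log2 difference of -0.99 had an interval from -1.24 to 0.28, which included 0.

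**Figure D5:**
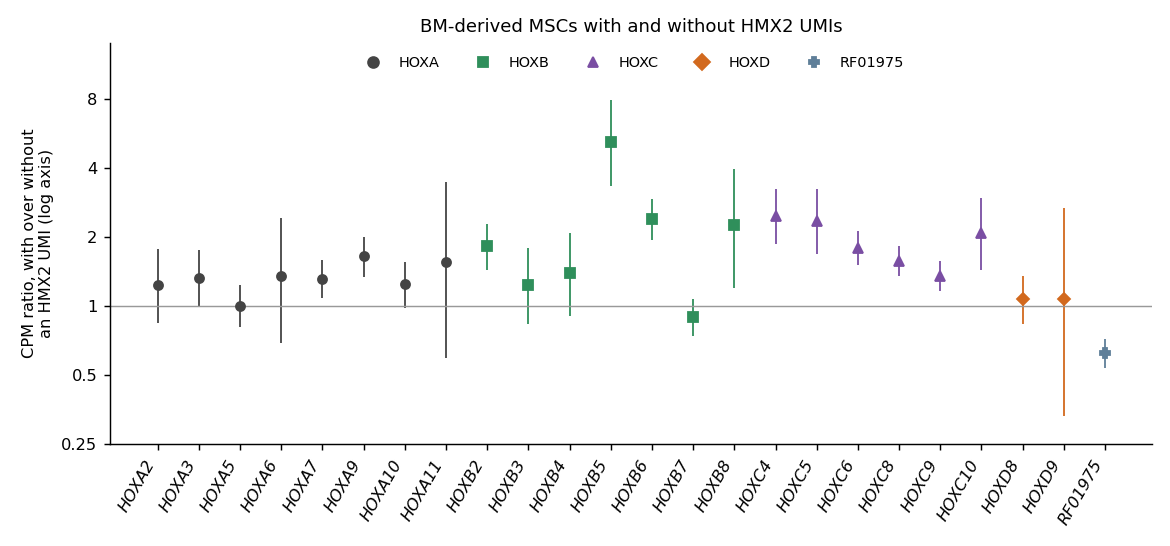
Ratio of CPM in BM-derived cells with an *HMX2* UMI over cells without (log axis) for 24 members with at least 50 UMIs in BM and a UMI in both groups. Bars are exact 95% intervals of the ratio, and the line marks 1. *HOXB5*, at 5.16, lies highest and *RF01975*, at 0.623, lowest.

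The higher *HOX* level was also found in cells of BM cell cluster 3 in which no *HMX2* UMI was counted. There, 336 cells without *HMX2* UMIs had 537 CPM of *HOX* genes and 72.9 CPM of *RF01975*, and 315 cells with them had 529 and 59.3 CPM. The 4897 cells without *HMX2* UMIs in the other BM cell clusters had 341 and 96.6 CPM. Restricted to cells called S or G2M, the 1212 cells of those other clusters had 322 CPM of *HOX* genes and 78.4 CPM of *RF01975*. The 32 cells with *HMX2* UMIs outside BM cell cluster 3 had 365 and 56.4 CPM.

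Between BM cell cluster 3 and all other BM-derived cells, *HOXC10* had 13.8 against 4.22 CPM (ratio 3.28, 2.48 to 4.31), *HOXC4* 22.5 against 6.39 CPM (3.51, 2.82 to 4.37) and *HOXB8* 5.54 against 1.496 CPM (3.70, 2.33 to 5.82). *HOXA9* had 40.5 against 18.2 CPM (2.23, 1.92 to 2.59). *HOXA5* (1.02, 0.865 to 1.20) and *HOXD8* (1.07, 0.883 to 1.30) were even here too. As the cell clusters were built from the expression of these same cells, these values are descriptions of that cell cluster.

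In AT, 63 cells had an *HMX2* UMI. Their members summed to 249 CPM (208 to 296) against 287 CPM (282 to 292) in the other AT-derived cells, with overlapping intervals. The difference between the BM and AT contrasts was not tested.

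Genes that work with or on the *HOX* clusters were mostly present at 1 CPM or more in all 3 sources, PB included. Of the TALE class of homeodomain proteins, which bind DNA together with HOX proteins, 7 of 8 rows reached 1 CPM in each source. *TGIF1* had 41.6 CPM in AT, 57.1 CPM in BM and 60.7 CPM in PB and *PKNOX1* 10.1, 16.6 and 12.998 CPM. *MEIS2* had 16.4, 11.9 and 4.61 CPM and was lower in PB than in AT and BM by a log2 difference of over 1, as were 2 of the 8 rows and 1.43% of all genes. *MEIS3*, named after its values were seen, was past 1 between AT and PB alone, with 6.43, 2.81 and 1.30 CPM.

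The Polycomb group, which keeps *HOX* genes silent, had 16 of 17 rows at 1 CPM or more in AT and 17 in BM and PB. *CBX2* was past a log2 difference of 1 above AT in BM, where 6.32% of all genes were, and *PHC2* above AT in PB, where 4.43% were, both named after their values were seen. Its most abundant rows were *RBBP4* (86.6, 111 and 91.8 CPM in AT, BM and PB), *RBBP7* (68.7, 54.1 and 42.7 CPM), *RING1* (54.4, 63.8 and 57.5 CPM) and *PCGF2* (26.99, 34.4 and 28.4 CPM). The trithorax group and the H3K27 demethylases, which oppose Polycomb, had 11 of 11 rows at 1 CPM or more in each source. Their top rows were *WDR5* (79.8, 81.4 and 56.4 CPM), *ASH1L* (38.9, 52.2 and 54.3 CPM), *KMT2C* (32.5, 31.5 and 27.03 CPM) and *KMT2A* (14.1, 17.3 and 10.8 CPM). The 3 *CDX* genes, which act upstream of *HOX* genes in the embryo, were below 1 CPM in every source.

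Of the 19 rows of genes that flank the *HOX* clusters, 13 reached 1 CPM in AT and 11 in BM and PB, and the list summed to 1814, 1802 and 1698 CPM. *ATP5MC2* had 736, 650.1 and 716 CPM, *HNRNPA1* 621, 633 and 545 CPM, *CALCOCO2* 96.1, 127 and 136 CPM and *MTX2* 99.5, 115 and 66.5 CPM. Past a log2 difference of 1, PB was lower than AT for *NFE2* and *SNX10* and lower than BM for *SKAP2*, where 3.53% and 4.53% of all genes were, and these were named after their values were seen. *EVX1* and *EVX2*, homeobox genes at the ends of the *HOXA* and *HOXD* clusters, had no UMI in any source and were likewise named afterwards.

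Other patterning genes also differed between the sources. Of 24 genes of head and jaw patterning, 9 reached 1 CPM in AT, 13 in BM and 15 in PB. PB was past a log2 difference of 1 above AT for 11 of them, where 4.43% of all genes were, and above BM for 5, where 1.77% were. In the other direction, AT was above PB for 2 of them and BM above PB for 5, where 3.53% and 4.53% of all genes were, and PB was below both for 2, where 1.43% were. BM was above AT for 8 and AT above BM for 1, where 6.32% and 2.06% of all genes were. PB was above both AT and BM for 5 genes of the list, where 1.24% of all genes were, among them *MSX1* (79.6 CPM in PB, 17.9 in AT and 14.7 in BM), *ALX1* (11.7, 0.100 and 0.0994 CPM), *PAX3* (8.58, 0.175 and 0.0249 CPM) and *BARX1* (5.86, 0.0250 and 0.0994 CPM). Of these, *ALX1*, *PAX3* and *BARX1* were named after their values were seen. The 2 genes of the list with PB below both were *SIX2* (2.40, 6.34 and 0.649 CPM in AT, BM and PB) and *FOXD1* (1.38, 3.33 and 0.0481 CPM), named afterwards as well. Other abundant rows were *TWIST1* (18.1, 52.6 and 65.4 CPM in AT, BM and PB) and *DLX5* (0.300, 59.2 and 41.0 CPM). *SOX10* and *OTX2*, named in the same way, had no UMI in any source.

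Of 26 genes of limb and trunk patterning, 12 reached 1 CPM in AT, 13 in BM and 10 in PB. *PRRX1* had 342, 593 and 677 CPM in AT, BM and PB, *PRRX2* 52.8, 72.1 and 79.6 CPM, *EMX2* 56.7, 5.19 and 21.6 CPM and *SHOX2* 47.9, 10.8 and 45.1 CPM. Past a log2 difference of 1, PB was above AT for 3 and above BM for 5, where 4.43% and 1.77% of all genes were. AT was above PB for 7 and BM above PB for 6, where 3.53% and 4.53% were. AT was above BM for 6 and BM above AT for 4, where 2.06% and 6.32% were. PB was above both for 3, where 1.24% were. They were *HAND2* (0.100, 7.43 and 25.2 CPM in AT, BM and PB), *PITX1* and *LMX1B*. PB was below both for 4, where 1.43% were, namely *TBX15*, *ZIC1*, *TBX18* and *PAX1*. All of these were named after their values were seen.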

How the data were processed

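The authors prepared 10x Genomics 3′ v2 libraries from AT-, BM- and PB-derived MSCs, aligned the reads to EquCab3.0 with Cell Ranger, counted UMIs per gene with ESAT and left out overlapping exons on opposite strands. The deposited values are raw UMI counts per gene and barcode, and all were whole. Cells holding 2500 to 15000 UMIs, of which chromosome MT took no more than 3%, were kept, and their UMIs were summed per source, with exact Poisson and Clopper-Pearson intervals (Python 3.11.15, NumPy 2.4.6, SciPy 1.17.1). Differences were taken in log2(CPM + 1), and genes were called past 1. In ratios a sum of 0 was set to 3 UMIs, which leaves out the counting error of the other sum. Each source was normalised and clustered alone with Seurat 5.3.0 and sctransform 0.4.2 (R 4.3.3, 3000 variable genes, resolution 0.6), and no doublet caller was run beyond the upper limit on UMIs. edgeR 4.0.16 gave TMM factors and no test. The members were named, with the 4 highest genes of each other list; some genes these rules would name are not reported here. Members and lists were chosen with earlier results of these data known. Alternatives were other UMI and mitochondrial limits, thinning, G1 cells only, TMM factors, another pseudocount and other thresholds.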

Additional observations from a re-analysis of the deposited data

Results flagged for a closer look

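*HOX* and *RF01975* UMIs were also present in AT barcodes below the lower UMI limit, which entered comparisons only where all barcodes of 500 UMIs or more were used. The 6155 AT barcodes under 2500 UMIs held 237 member UMIs, or 42.9 CPM (95% Poisson interval 37.6 to 48.7), where 0 UMIs would allow up to 0.543 CPM. The 444 of them that did not occur in the PB matrix had 334 CPM (289.8 to 383). The 5711 that did occur there had 6.71 CPM (4.62 to 9.42), from 33 UMIs.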

How the results depend on the processing

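No direction of the source sums, the *RF01975* difference or the *HMX2* contrast reversed under any alternative, and values that moved beyond their counting interval are given here. The member sum in AT (287 CPM) was 259 CPM with all barcodes of 500 UMIs or more, 309 CPM with TMM factors and 276 CPM in cells of 8000 UMIs or more. In BM (462 CPM) it was 471 CPM after thinning, 455 CPM in G1 cells, 410.5 CPM with TMM factors, 474 CPM in S or G2M cells and 451 CPM in cells of 8000 UMIs or more. The log2 difference of AT over BM (-0.69) was -0.84 from 500 UMIs and -0.41 with TMM factors. That of *RF01975* in BM over AT (1.66) was 1.81 from 500 UMIs, 1.13 with a pseudocount of 25 CPM, 1.39 with TMM factors and 1.47 in S or G2M cells. The *HMX2* log2 difference (0.35) was 0.25 in G1 cells and 0.45 from 8000 UMIs. At 0.2 CPM, 32 members passed in AT, 28 in BM and 1 in PB, so that AT had more than BM, unlike at 1 CPM (22 and 25), and at 10 CPM, 10 passed in AT and 13 in BM. The limits of S or G2M cells, 8000 UMIs and genes at 1 CPM were chosen after seeing the data, and the cause of these shifts was not tested. No paired analysis was possible because each source had 1 library. The use of 1 animal and 1 library per source leaves no measure of variation between animals, cultures or libraries.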
